A study of Mus musculus with 249 samples.

Results

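The libraries described here are the 21 of 249 multiplex genome architecture mapping (GAM) libraries whose titles name the freezing-after-incubation experiment. They fall into 10 libraries titled frozen-post-incubation and 11 titled unfrozen, and their titles and library names alone decide which libraries belong, with no measured value. All were made from 46C, a mouse embryonic stem (ES) cell line of strain 129/Ola that, per the methods of the study, carries a green fluorescent reporter at Sox1. The cells were kept in serum with LIF, the cytokine that holds ES cells undifferentiated, and were moved to a serum-free medium for the last day. In both arms, cryosections of 220 nm were cut, and 4 profiles, slices of single cells, were microdissected into each cap. The study reports that not every such cellular profile intersects the nucleus. The number of nuclear profiles in each library is therefore unknown and may differ between libraries. DNA was extracted for 4 h at 50 °C and heated to 99 °C for 4 min. The frozen libraries were then kept overnight at -20 °C before library preparation, while the unfrozen ones went on without a pause. Both were amplified with the same kit over 25 PCR cycles. The comparison therefore asks whether the protocol can be interrupted once the DNA is in solution.

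GAM reads nuclear structure from slices. A thin section through a nucleus holds a few stretches of each chromosome that lies in its plane, so loci that are close in space tend to be found together in the same slices. DNA recovered from a slice therefore forms runs of adjacent positive windows, and a chromosome that the slices missed stays empty, while a high share of positive windows without a positive neighbour is taken as a sign of poor quality in this assay. The quantities below are the amount of genome detected, the shape of these runs, and the identity of the loci.

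The deposited values are calls of 0 or 1 for 68162 windows of 40 kb on mm9. Read counts are not among them, which leaves the depth of each library unknown: a 0 does not separate absent DNA from too few reads, and no interval for depth can be given. Libraries that failed the authors' quality control are not in the table, and every value is conditional on having passed it. The names of the libraries read as plate positions. On that reading the unfrozen libraries fill columns 1 (7 libraries) and 2 (4), and the frozen ones columns 3 (6) and 4 (4), so that arm and plate column cannot be told apart. The labels do not say that libraries came from separate cultures, so p-values measure the spread between libraries of these cells. DNA calls carry no expression markers, and the ES cell label was not checked against any.

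Windows found in every library of both arms are described first. Positive calls in all 10 frozen and all 11 unfrozen libraries were made in 8 windows, of which 6 were autosomal, 1 was on chromosome X and 1 was the mitochondrial genome. Among them was mm9 chr9:3000001-3040000, where 74.6% of the bases repeat with a period of 234 bases. That period is the unit length of the mouse major satellite, the tandem repeat of the pericentromeric heterochromatin, of which the assembly holds only a small part of the copies in the genome. One copy of the unit, at chr9:3026913-3027146 on the plus strand, is shown in full because its window was positive in every library; it has a GC content of 32.1%, and consecutive copies over 2000 bases agreed at 91.7% of positions.
chr9 unit: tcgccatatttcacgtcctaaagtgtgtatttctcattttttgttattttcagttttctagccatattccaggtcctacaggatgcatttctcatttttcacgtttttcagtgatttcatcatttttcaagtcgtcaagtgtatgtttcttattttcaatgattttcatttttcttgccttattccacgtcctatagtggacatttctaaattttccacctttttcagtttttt
The window chr2:98480001-98520000, positive in all 249 libraries, shared 2.16% of its 20-base words with the chromosome 9 window. Other such windows were chr11:3040001-3080000 and chr11:3080001-3120000, which hold Sfi1, a gene for a centrosomal protein, Drg1 and Eif4enif1, whose product carries the translation factor eIF4E into the nucleus. The remaining ones were chr9:35080001-35120000 with Rpusd4, a gene for a mitochondrial pseudouridine synthase, and chr12:3080001-3120000 and chrX:139880001-139920000, with no protein-coding gene.

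Outside those windows, each library detected a small and different part of the genome. Coverage, the percent of listed windows that were positive, ran from 11.3% through a median of 14.9% to 24.9% in the frozen arm. In the unfrozen arm it ran from 3.56% through a median of 16.2% to 36.5%. The lowest and highest frozen libraries were replicates 4 and 3, and the lowest and highest unfrozen ones were replicates 3 and 10. The frozen range thus lay inside the unfrozen range, with 3 unfrozen libraries below the lowest frozen one and 2 above the highest. Mean coverage was 15.9% ± 4.16 (SD, n = 10) after freezing and 17.6% ± 9.73 (SD, n = 11) without. The difference of -1.77 points had a 95% interval from -8.77 to 5.16 (permutation test, adjusted p = 0.812). It was 0.125 points without unfrozen replicate 10. On the logit scale, the log ratio of positive to negative windows, it was -0.0032. All permutation tests of library measures were two-sided, used 100000 resamples and were adjusted over 16 library measures. None of the 16 passed the threshold of 0.05, and 2 had an unadjusted p under it. The distance of a library from the median coverage of its arm averaged 2.92 points in frozen and 6.90 points in unfrozen libraries (permutation test, p = 0.0996, adjusted p = 0.531). Without unfrozen replicate 10 that difference went from -3.98 to -2.64 points.

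**Figure D1:**
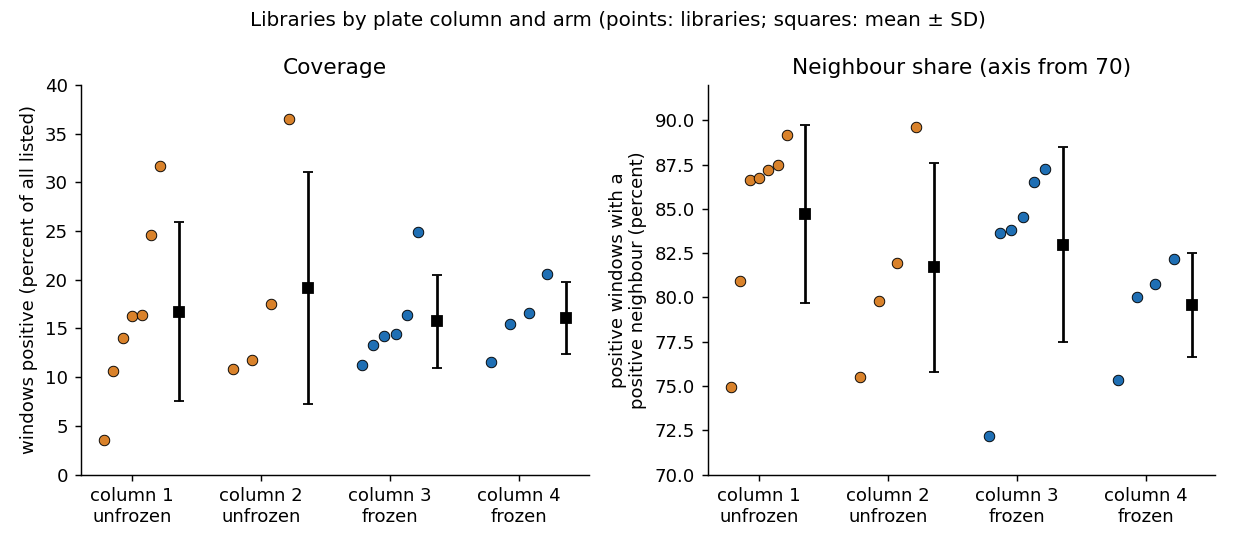
Coverage in percent of listed windows (left) and neighbour share in percent of positive windows (right, axis from 70) by plate column and arm; each point is a library and squares with bars are the mean ± SD of a column. Frozen coverage lies between 11.3% and 24.9%, inside the unfrozen range of 3.56% to 36.5%.

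Within an arm, where freezing did not vary, the plate columns were compared with an exact permutation test. Frozen libraries averaged 15.7% ± 4.78 in column 3 (SD, n = 6) and 16.0% ± 3.71 in column 4 (SD, n = 4; exact p = 0.919). Unfrozen libraries averaged 16.7% ± 9.17 in column 1 (SD, n = 7) and 19.2% ± 11.9 in column 2 (SD, n = 4; exact p = 0.7). Neighbour shares differed by 3.41 points between the frozen columns (exact p = 0.305) and by 3.02 points between the unfrozen columns (exact p = 0.409; 5.91 points by medians, exact p = 0.288). None of the 4 contrasts passed adjustment over these 4, with adjusted p from 0.818 to 0.919.

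Over the whole arm, the frozen libraries together detected 81.5% of autosomal windows at least once. The unfrozen libraries together detected 87.2%, and any 10 of the 11 detected between 81.5% and 87.0%, with a median of 85.3%. All 11 such sets of 10 were above the frozen value, the lowest only narrowly (81.54% against 81.45%). The sets share most of their libraries, so they are not 11 separate comparisons, and the frozen value has no matching spread. Mean coverage was also higher in the unfrozen arm (17.6% against 15.9%). Both arms together reached 94.6% of autosomal windows, of which 45773 were positive in both arms, 4579 in frozen libraries alone and 8123 in unfrozen libraries alone.

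Positive windows formed runs in both arms. The neighbour share, the percent of positive windows with a positive adjacent window, ran from 72.2% through a median of 82.9% to 87.3% in frozen libraries and from 74.9% through a median of 86.6% to 89.6% in unfrozen ones. The 2 ranges overlapped over most of their length, although 9 of 10 frozen libraries were below the unfrozen median. Its mean was 2.00 points lower after freezing, and the 95% interval ran from -6.68 to 2.62 (permutation test, adjusted p = 0.777). A share of this kind rises with coverage by itself. Against the share expected from the coverage of each chromosome, the observed share was higher by 43.7 ± 5.35 points in frozen libraries (SD, n = 10) and by 42.4 ± 10.8 points in unfrozen libraries (SD, n = 11; permutation test, adjusted p = 0.881). This excess was not free of coverage either. It was 58.4 points in unfrozen replicate 3, at 3.56% coverage, and 23.3 points in unfrozen replicate 10, at 36.5%. Over all 21 libraries, coverage and neighbour share had a Pearson r of 0.615 (permutation p = 0.00278) and a Spearman coefficient of 0.531 (permutation p = 0.0148). With the 2 libraries of most extreme coverage left out, r was 0.535 (permutation p = 0.0178). Within the arms, r was 0.451 in frozen (permutation p = 0.187, Spearman 0.370 with permutation p = 0.298) and 0.707 in unfrozen libraries (permutation p = 0.0138, Spearman 0.673 with permutation p = 0.0281). Leaving out the 2 farthest libraries gave 0.348 in frozen (permutation p = 0.394) and 0.661 in unfrozen ones (permutation p = 0.0475). After adjustment over these 3 correlations, the p of r was 0.00834 for all libraries, 0.187 for frozen and 0.0207 for unfrozen ones, and that of the Spearman coefficient was 0.0421, 0.298 and 0.0421; whether the arms differ in r was not tested.

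Run lengths overlapped between the arms. A frozen library held 4084 runs on average, with a mean run of 106 ± 15.7 kb (SD, n = 10) against 116 ± 22.5 kb in unfrozen libraries (SD, n = 11). The difference of -9.71 kb had an interval from -27.7 to 8.14 kb (permutation test, adjusted p = 0.777), and it was -6.34 kb without unfrozen replicate 10. By medians it was -15.8 kb (permutation p = 0.231), and with runs allowed to bridge 1 negative window it was -19.4 kb (permutation p = 0.316). By length, 18.4% of positive windows in frozen and 16.4% in unfrozen libraries stood alone. Runs of 80 to 160 kb held 39.03% and 36.7%, runs of 200 to 360 kb 25.4% and 26.3%, and runs of 400 to 960 kb 14.7% and 16.9%. The longest runs, 1 Mb or more, held 2.55% ± 2.02 of positive windows in frozen libraries (SD, n = 10) and 3.67% ± 3.62 in unfrozen ones (SD, n = 11). In every class the means of the arms were closer than 1 SD of either arm, which does not show that the arms are alike. The longest run in any frozen library was 2640 kb and in any unfrozen library 3320 kb.

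The correlation of calls at a fixed distance within a chromosome is a measure of run structure that takes out how much of each chromosome was sampled. Adjacent windows had a correlation of 0.511 ± 0.063 in frozen (SD, n = 10) and 0.530 ± 0.061 in unfrozen libraries (SD, n = 11; permutation test, adjusted p = 0.777). At 200 kb the values were 0.344 ± 0.052 and 0.351 ± 0.059. They met at 1 Mb, with 0.180 ± 0.045 and 0.179 ± 0.047, where the interval of the difference ran from -0.041 to 0.043 (permutation test, adjusted p = 0.955). By 5 Mb they had fallen to 0.042 ± 0.021 and 0.037 ± 0.020. In both arms, then, the correlation fell with distance over the same range.

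**Figure D2:**
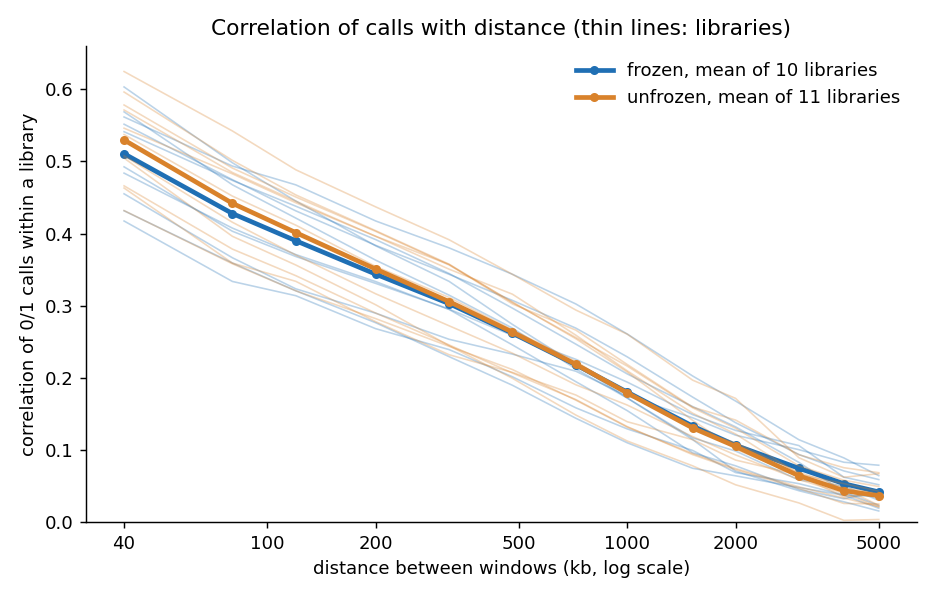
Correlation of the 0/1 calls of windows within a library against their distance in kb (log scale); thin lines are libraries, thick lines with points the mean of each arm. The means are 0.511 and 0.530 at 40 kb and 0.180 and 0.179 at 1 Mb for frozen and unfrozen libraries.

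The 2 measures with an unadjusted p under 0.05 concerned which windows were positive. Protein-coding genes overlapped 59.3% of the positive and 54.7% of the negative autosomal windows in the frozen arm, and 57.3% and 55.0% in the unfrozen arm. Taken per library, the gene share of positive minus that of negative windows ran from 1.28 through a median of 4.75 to 7.68 points in frozen libraries and from -3.28 through a median of 2.53 to 4.27 points in unfrozen ones. All 11 unfrozen libraries lay below the frozen median, and 8 of 10 frozen libraries lay above the unfrozen mean, yet the ranges overlapped. The means were 4.56 ± 2.08 points (SD, n = 10) and 2.28 ± 2.06 points (SD, n = 11), a difference of 2.29 points with an interval from 0.440 to 4.197 (permutation test, p = 0.0155). After adjustment over the 16 measures p was 0.248, so the difference was not called. Unfrozen replicate 7 had the lowest value, and without it the difference was 1.73 points (permutation test, p = 0.0290, adjusted p = 0.464).

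GC content differed in the same direction as gene content. Positive windows were richer in GC than negative ones by 0.565 ± 0.371 points in frozen (SD, n = 10) and by 0.240 ± 0.328 points in unfrozen libraries (SD, n = 11). The difference of 0.325 points had an interval from 0.010 to 0.646 (permutation test, p = 0.0428, adjusted p = 0.343), and it had an unadjusted p under 0.05 in only 7 of the 21 recomputations that left out 1 library. The lowest difference was 0.239 points, without unfrozen replicate 7 (permutation test, p = 0.0802). When autosomal windows were split into quintiles by GC content, the poorest quintile was detected less often than all autosomal windows in 10 of 10 frozen and 10 of 11 unfrozen libraries. There the shortfall was -2.99 ± 1.32 points in frozen (SD, n = 10) and -1.503 ± 1.71 points in unfrozen libraries (SD, n = 11). The richest quintile was detected more often by 2.87 ± 2.79 points (SD, n = 10) and 1.499 ± 2.25 points (SD, n = 11), in 8 of 10 and 9 of 11 libraries. Within quintiles of GC content, a comparison chosen after seeing these values, the difference in gene share was 1.01 points (permutation test, p = 0.0825, adjusted p = 0.531). In the 228 libraries of the other experiments, the gene share of positive minus negative windows was 3.65 ± 3.04 points (SD), between the means of both arms.

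**Figure D3:**
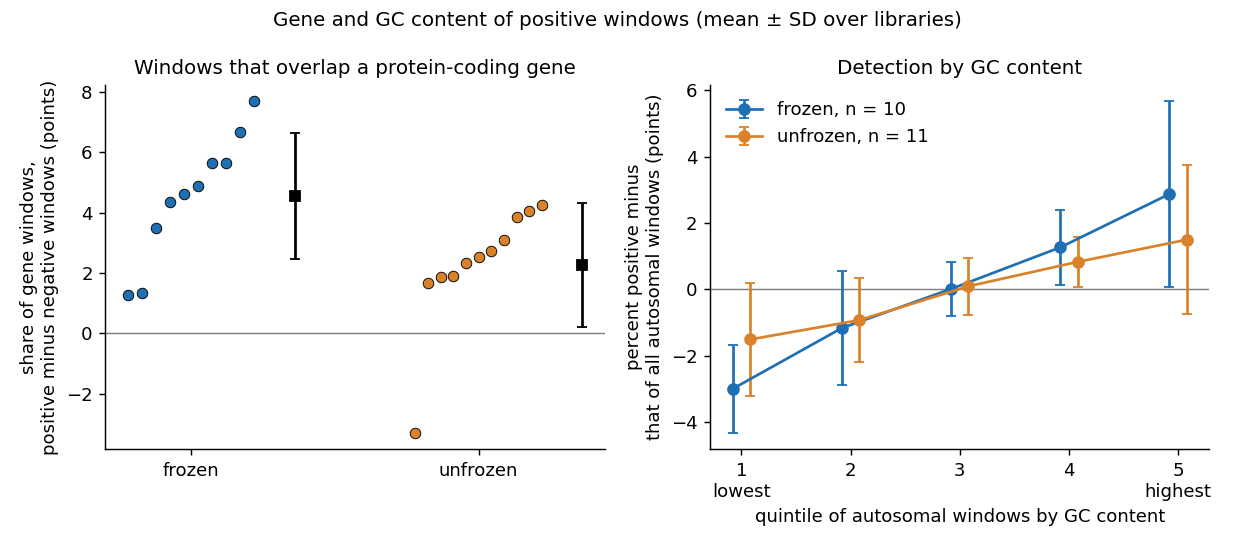
Left, share of windows overlapping a protein-coding gene among positive minus negative autosomal windows, in points, per library with mean ± SD; right, percent positive in quintiles of autosomal windows by GC content minus that of all autosomal windows, mean ± SD of 10 frozen and 11 unfrozen libraries. The gene share averages 4.56 points in frozen and 2.28 points in unfrozen libraries, and the ranges overlap.

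A slice may miss a chromosome, and libraries differed widely in which chromosomes they held. Of 399 pairs of library and autosome, 21 had under 1% of windows positive and 23 had over 40%. The coefficient of variation of percent positive over the 19 autosomes was 52.6% ± 17.4 in frozen (SD, n = 10) and 60.7% ± 30.5 in unfrozen libraries (SD, n = 11; permutation test, adjusted p = 0.777). Without unfrozen replicate 3, the library of lowest coverage, the difference went from -8.10 to -1.40 points. Each chromosome was then set against the other autosomes of the same library and compared between arms. Of the 20 chromosomes tested, 0 passed adjustment (0%), and 0 had an unadjusted permutation p under 0.05. Chromosomes 13 and 2 had the lowest p of those higher in frozen libraries, by 6.74 points (permutation p = 0.129) and 5.18 points (p = 0.208), the latter 3.003 points without unfrozen replicate 6. When percentages were not set against the other autosomes, these differences were 4.47 points (permutation p = 0.483) and 2.86 points (p = 0.409). Of those lower in frozen libraries, chromosome 15 differed by -6.26 points (permutation p = 0.0909) and chromosome 19, a short gene-dense chromosome, by -8.82 points (p = 0.127). Adjusted p ran from 0.863 to 0.986.

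**Figure D4:**
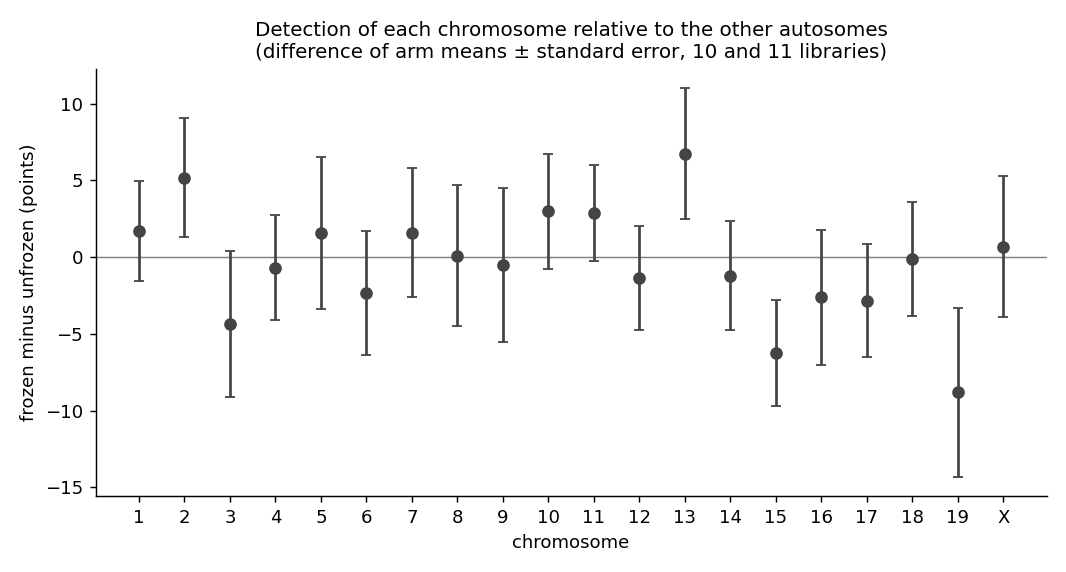
Percent of windows positive on each chromosome relative to the other autosomes, frozen minus unfrozen in points, as the difference of arm means with its standard error over 10 and 11 libraries. The values run from -8.82 points on chromosome 19 to 6.74 points on chromosome 13.

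Chromosome X was covered less than the autosomes in most libraries, and the number of X copies per cell was not taken into account. Autosomal windows were positive in 17.5% on average in frozen and 19.5% in unfrozen libraries. Windows of chromosome X were positive in 8.38% ± 9.48 in frozen (SD, n = 10) and 9.63% ± 6.06 in unfrozen libraries (SD, n = 11). Relative to the autosomes it ran from -16.5 through a median of -10.8 to 15.5 points in the frozen arm and from -27.9 through a median of -9.49 to 7.37 points in the unfrozen arm. Frozen replicate 10, with 26.9% of X windows positive, was the only frozen library above 0. The arm means differed by 0.684 points, with an interval from -9.01 to 10.5 (permutation test, adjusted p = 0.947). The first 3 Mb of listed sequence of the autosomes, next to the centromere, differed from the rest of the autosomes by 1.64 ± 5.27 points in frozen (SD, n = 10) and -0.977 ± 5.08 points in unfrozen libraries (SD, n = 11; permutation test, p = 0.259). At the last 3 Mb, next to the telomere, the values were -0.178 ± 5.79 and 1.28 ± 2.33 points (permutation test, p = 0.454).

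No region of 1 Mb was called. Of 2398 bins tested relative to the rest of each library, 0 passed adjustment (0%), and the lowest adjusted p was 0.860. Without adjustment 126 bins had p under 0.05 (5.25%), 64 higher and 62 lower in frozen libraries. The named bins below are the 3 of lowest p in each direction, and they are given as descriptions.
At chr11:45000001-46000000, which holds Clint1, a gene for a clathrin adaptor, Lsm11, needed for histone mRNA processing, and the metalloprotease gene Adam19, a median of 40% of windows was positive in frozen libraries (range 0% to 64%) and 4% in unfrozen ones (range 0% to 40%; permutation p = 0.0016). At chr5:34000001-35000000, with the spindle gene Tacc3, the receptor gene Fgfr3 and the histone methyltransferase gene Whsc1, the medians were 38% and 0% (permutation p = 0.00326). At chr7:130000001-131000000, with Tnrc6a, a gene of the microRNA silencing complex, and Rbbp6, every frozen library had a positive window, and the medians were 56% and 16% (permutation p = 0.00377).
Lower in frozen libraries was chr15:95000001-96000000, with Nell2, the homeobox gene Dbx2 and the lipid scramblase gene Ano6, at medians of 2% and 32% (permutation p = 0.00208). So was chr15:47000001-48000000, which overlaps the long gene Csmd3, at medians of 0% and 44% (permutation p = 0.00257). At chr4:51000001-52000000, with Cylc2, a gene of the sperm head, they were 0% and 12% (permutation p = 0.00264). In 5 of these 6 bins at least 1 library of the arm with the higher median had no positive window.

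Single windows gave the same count. Of 46613 windows positive in at least 3 of the 21 libraries, 0 passed adjustment of Fisher's exact test (0%), and the lowest adjusted p was 1. Unadjusted p was under 0.05 in 790 windows (1.69%), of which 439 were positive more often and 351 less often in frozen libraries. That split rests on windows with few positive libraries, since among windows positive in at least 5 libraries it was 147 and 351. With 4 positive libraries, Fisher's exact p is 0.0351 if all are frozen and 0.0902 if all are unfrozen, so only the first can fall below the threshold. With these group sizes the smallest p that Fisher's exact test can give is 2.84e-06, so a window that separated the arms completely could have passed if at least 3 windows did so. The lowest p was at chr12:102480001-102520000, without a protein-coding gene, which was positive in 7 of 10 frozen and 0 of 11 unfrozen libraries (Fisher's exact p = 0.00103). A window in Arhgap17, at chr7:130440001-130480000, was positive in 9 of 10 and 2 of 11 (Fisher's exact p = 0.00191), and it lies in the chromosome 7 bin named above. Rundc3b, at chr5:8480001-8520000, was positive in 6 of 10 and 0 of 11.
In the other direction, 3 windows were positive in 0 of 10 frozen and 7 of 11 unfrozen libraries (Fisher's exact p = 0.00387 each, as for Rundc3b). They were chr3:19520001-19560000 with the start of Trim55, a muscle ubiquitin ligase gene, chr7:14680001-14720000 with the sulfotransferase gene Sult2a3, and chr6:56560001-56600000 without a protein-coding gene.

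Genes of ES cell identity were found in both arms. Of 24 pluripotency genes, each counted as detected in a library when a window over it was positive, 9 were detected in more frozen than unfrozen libraries, 8 in fewer and 7 in the same number. Over all 22350 protein-coding genes, 32.5% were detected in more frozen than unfrozen libraries, 45.1% in fewer and 22.4% in the same number, with 1 library fewer in the frozen arm. As a share of the libraries of each arm, the median difference was 1.82 points for the list, which is 2 of 10 against 2 of 11, and 0.909 points for all genes. One library changes a share by 10 points in the frozen arm, so most of these differences are those of 1 or 2 libraries, and genes that lie in 1 window or next to each other share their calls.
Nanog was detected in 4 of 10 frozen and 3 of 11 unfrozen libraries, and Sox2, a core partner of it, in 2 and 1. Pou5f1, which encodes OCT4, was detected in 0 of 10 and 2 of 11. The other factors of the network included Klf4 with 2 and 5, Esrrb with 4 and 7, Zfp42 with 3 and 2, and Prdm14, which represses differentiation genes, with 4 and 3.
The largest difference towards frozen libraries was that of Dppa5a, which encodes an RNA-binding protein of early embryonic cells, with 5 of 10 and 3 of 11. Sall4 and Stat3, the transcription factor that LIF activates, each had 4 and 2. Lin28a, a blocker of let-7 processing, and the chromatin gene Utf1 had 2 and 4 each, and Tdgf1, a Nodal co-receptor, had 3 and 5.
Dppa3 and Dppa4 were each detected in 3 and 2, Fgf4 and the DNA demethylation enzyme gene Tet1 in 3 and 3, and Klf2 in 1 and 1. Tet2, Tbx3, Nr5a2 and Klf5 were each at 2 and 2, and Tfcp2l1 and Mycn each at 1 and 2.

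**Figure D5:**
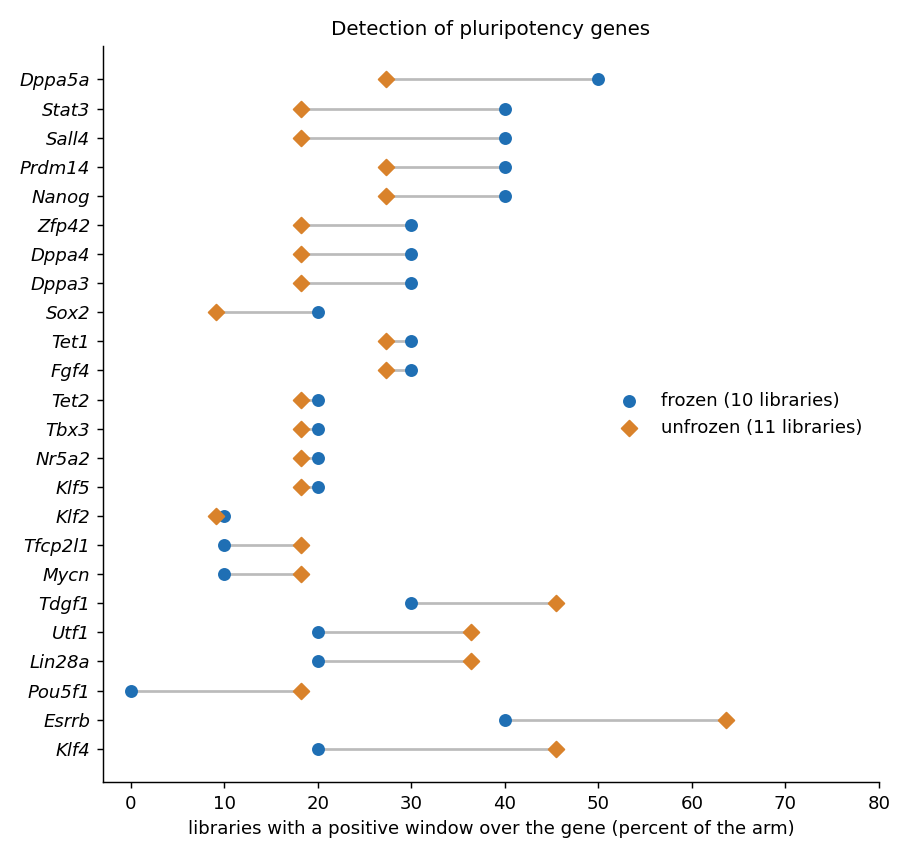
Percent of libraries of each arm with a positive window over each of 24 pluripotency genes (circles, 10 frozen libraries; diamonds, 11 unfrozen libraries), sorted by the difference. By number of libraries, 9 genes were detected in more frozen libraries, 8 in fewer and 7 in the same number, and those 7 lie slightly towards frozen because the arms hold 10 and 11 libraries.

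Other gene groups, with other chromatin and length, are set beside the same background of 0.909 points, and genes are counted by number of libraries. The 20 housekeeping genes had a median difference of -6.36 points, with 5 detected in more frozen than unfrozen libraries, 11 in fewer and 4 in the same number, from Rplp0, a ribosomal protein gene, with 4 of 10 and 2 of 11, to Psmb4, Tfrc and Hsp90ab1 with 1 and 3 each. The 19 neural and lineage regulators had a median of -7.27 points, with 6 detected in more, 10 in fewer and 3 in the same number, from the endoderm factor gene Sox17 with 3 of 10 and 0 of 11 to Eomes, which specifies early lineages, with 0 and 3.
Long neuronal genes cover many windows each. The 20 of them had a median difference of -3.64 points, with 4 detected in more frozen than unfrozen libraries, 13 in fewer and 3 in the same number, from the adhesion gene Cntn5 with 8 of 10 and 7 of 11 to Il1rapl1 on chromosome X with 1 and 4. The 15 imprinted genes, expressed from 1 parental allele, had a median of 11.8 points, with 8 detected in more, 6 in fewer and 1 in the same number, from Nnat with 4 of 10 and 0 of 11 to Snrpn with 2 and 5.
Gene clusters lie side by side, so that few independent calls stand behind them. The 1113 olfactory receptor genes had a median difference equal to that of all genes, 0.909 points, with 357 detected in more, 457 in fewer and 299 in the same number, from Olfr398 with 7 of 10 and 1 of 11 to Olfr267 with 1 and 7. The 40 genes of the Hox clusters, which pattern the body axis, had a median of 1.82 points, with 11 detected in more frozen than unfrozen libraries, 16 in fewer and 13 in the same number, from Hoxd11 with 4 and 1 to Hoxc8 and Hoxc9 with 2 and 5. The 55 histone genes of the Hist1 cluster on chromosome 13 had a median of 1.82 points, and 21 of them, among them Hist1h4a with 4 and 1, were detected in more frozen than unfrozen libraries, 12 in fewer and 22 in the same number.

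Pairs of libraries within an arm were compared with pairs between arms. The log2 ratio of shared windows to the number expected from both coverages was 0.07 ± 0.13 over 45 pairs of frozen libraries (SD), 0.04 ± 0.15 over 55 pairs of unfrozen libraries and 0.06 ± 0.12 over 110 pairs between arms. The mean within arms minus that between arms was -0.0026 (permutation of library labels, p = 0.885). No pair was identical. The highest ratio over expectation, 0.54, was that of frozen replicate 10 and unfrozen replicate 3, the library of lowest coverage, and their Jaccard index, the shared part of all windows positive in either, was 0.039, against a mean of 0.098 between arms. Across 2398 bins, which neighbour each other and so are not independent, mean detection in the frozen arm had a Pearson r of 0.147 with that in the unfrozen arm. With the mean of the libraries of the other experiments, r was 0.314 for the frozen and 0.205 for the unfrozen arm. The r to be had from arms of this size was not computed.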

How the data were processed

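GAM libraries of 46C cells were sequenced by the authors. Per the methods and processing notes, reads were aligned to mm9 with Bowtie2 (version 2.1), duplicates were removed, and GAMtools called each window of 40 kb positive at a fixed number of reads. The authors deposited these calls (0 or 1) for 249 libraries, and 0 columns were left unused. A fixed read threshold makes coverage depend on depth, which is unknown. Window ends matched the lengths of the NCBIM37 assembly (mm9), from which GC content was computed over windows with at least 10000 known bases, and genes came from GENCODE vM1.

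Arms were taken from the titles. Replicate numbers are in accession order and pair nothing. Library measures were compared with permutation tests (100000 resamples, NumPy 2.4.6) and Benjamini-Hochberg adjustment, windows with Fisher's exact test (SciPy 1.17.1), and bins of 1 Mb and chromosomes with permutation tests. Bins with fewer than 10 usable windows were left out, where a usable window was positive in at least 1 of all libraries. Intervals hold the shifts that the permutation test does not refuse at the 95% level. Scripts were tested on simulated data. Alternatives used medians, windows positive in at least 25 of all libraries, autosomes only, bridged runs, other bins and thresholds, and each library left out. Named windows, bins and chromosomes are those of lowest p in each direction. Pluripotency genes are given with their counts, and of each other list the genes with the largest and the smallest difference. The experiment to describe and the gene lists were chosen with earlier results of these data known, while the libraries in it follow from their titles. Tfcp2l1 was found under an older symbol, and Sox1 and Kcnq1ot1 were not matched.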

Additional observations from a re-analysis of the deposited data

Results flagged for a closer look

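Values that stood apart from the rest of a group of 4 to 10 libraries by the size of the gap to the nearest one were looked for in 23 groups of values, and 3 were found; chance alone gives about 1 in 20. In the frozen arm, chromosome X relative to the autosomes was 15.5 points in replicate 10, whereas the other 9 frozen libraries were below 0. In plate column 3, frozen replicate 3 had a coverage of 24.9%. In the same column, frozen replicate 4 had a neighbour share of 72.2%, and without that library the difference of the arm means (frozen minus unfrozen) was -0.949 points. The unfrozen arm as a whole, with 11 libraries, was outside the sizes screened. In it, replicate 7 was lowest in the gene share of positive minus negative windows, at -3.28 points with the next library at 1.66, and in GC content, at -0.622 points with the next at 0.191.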

How the results depend on the processing

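No difference between the arms passed adjustment in the main analysis, and none did in 81 recomputations under 16 other settings or in 462 with 1 library left out. Of the 81, 73 kept direction and side of the threshold or count. With medians in place of means, the neighbour share was -3.70 points and -1.12 points over expectation, the share in runs of 400 kb or longer -5.32 points, the correlation at 1 Mb -0.0053 and at 5 Mb -0.0010, and chromosome X against autosomes -1.36 points; with expected overlap taken per chromosome, the overlap difference was 0.0079. Within the unfrozen arm, column 1 minus column 2 in coverage was -2.46 points by means and 1.56 points by medians; in the frozen arm, column 3 minus column 4 was -0.319 and -1.72 points (exact p = 0.5). With 1 library left out, coverage ranged from -3.17 (without unfrozen replicate 3) to 0.125 points (without unfrozen replicate 10), the neighbour share over expectation from -0.603 to 2.90 points, the correlation at 200 kb from -0.0152 to 0.0016, at 1 Mb from -0.0078 to 0.0093, at 40 kb from -0.0294 (without frozen replicate 5) to -0.0087 (without frozen replicate 4) and at 5 Mb from 0.0013 (without frozen replicate 1) to 0.0086 (without unfrozen replicate 9), chromosome X against autosomes from -2.06 to 2.41 points, and the overlap difference from -0.0123 to 0.0137. Mean run length ranged from -13.03 to -6.34 kb and the share in runs of 400 kb or longer from -5.14 to -1.74 points (lowest without unfrozen replicate 3 and highest without unfrozen replicate 10 in both), the variation over autosomes from -11.7 (without unfrozen replicate 10) to -1.40 points (without unfrozen replicate 3; -0.871 with medians), the neighbour share from -2.87 (without unfrozen replicate 3) to -0.949 points (without frozen replicate 4), the first 3 Mb from 1.68 (without unfrozen replicate 10) to 3.93 points (without frozen replicate 3), the last 3 Mb from -2.66 (without frozen replicate 6) to -0.619 points (without frozen replicate 1), and the GC difference from 0.239 to 0.390 points, with an unadjusted permutation p from 0.0131 to 0.0887; with GC content taken relative to the chromosome it was 0.271 points (p = 0.0543), a setting chosen after seeing the data. The difference in the spread of coverage ranged from -4.82 (without frozen replicate 3, unadjusted permutation p = 0.0484) to -2.64 points (without unfrozen replicate 10). Chromosome 13 ranged from 5.25 to 8.30 points, chromosome 2 from 3.003 (without unfrozen replicate 6) to 6.46, chromosome 15 from -7.81 (without frozen replicate 2, unadjusted permutation p = 0.0296) to -4.66 and chromosome 19 from -10.6 to -6.11. The gene share difference ranged from 1.73 to 2.65 points, with an unadjusted permutation p from 0.00392 to 0.0348, and was 1.95 points within chromosomes (p = 0.0432), also chosen after seeing the data. Windows with an unadjusted p under 0.05 numbered 790, 498 (147 more and 351 less often in frozen libraries) when at least 5 libraries had to be positive, and 2164 (1245 and 919) in a test stratified by coverage with an approximate p; bins numbered 126 of 2398 (5.25%), 84 (3.5%) when not taken relative to the library, and 55 of 1217 (4.52%) at 2 Mb. The other causes of these shifts were not tested. No paired analysis was possible because the labels carry no replicate numbers.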
